A study of Mus musculus with 6 samples.

Results

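Small nucleolar RNAs (snoRNAs) and the long noncoding genes that carry them were followed in RAW 264.7 cells, a mouse macrophage line. The members were the genes of the deposited table whose symbol begins with Snhg or Snord and a number, plus Gas5, and whose mean over the 6 libraries was at least 1 FPKM, a fragment count corrected for the length of the transcript and the size of the library. Of 55335 genes in the table, 115 matched by symbol and 36 reached that level, 11 of 16 host genes and 25 of 99 short snoRNAs. Of the remaining short snoRNAs, 52 lay below the level and 22 were listed at 0 in every library. Members were chosen by their mean FPKM over all 6 libraries, so their levels are given as a description. The rule set no limit on the difference between the groups, but the members were chosen with earlier results of these data known. Their counts beside those of all genes are therefore a description as well. Snord17, Snord73a, Snord12 and Snord71 had a mean above 1 FPKM with LPS and below it with ultrasound, so the LPS group alone brought them in. The lowest host genes inside the limit were Snhg10 at 1.57 and Snhg12 at 2.47 FPKM, and the highest outside it was Snhg9 at 0.433. Among the short snoRNAs, Snord17 at 1.01 and Snord12 at 1.08 FPKM lay just inside, and Snord37 at 0.988 and Snord15b at 0.958 just outside.

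All 6 libraries came from wild-type RAW 264.7 cells given lipopolysaccharide (LPS), part of the outer membrane of Gram-negative bacteria and a strong macrophage activator, at 200 ng/ml for 8 h. In the LPS group of 3 libraries this was the only treatment. In the LPS plus ultrasound group of 3 libraries, cells also received pulsed ultrasound for 10 min during that period, at an intensity of 50 mW/cm² and a frequency of 1 MHz, with a duty cycle of 20%, pulses of 200 µs and a pulse repetition frequency of 1 kHz. The comparison addresses what ultrasound adds to the response of cells that have all received LPS, and cells without LPS were not analysed here. Nothing in the labels ties the libraries to separate cultures. The p-values therefore measure the spread between these libraries alone, which may be technical.

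The libraries were much alike in size, with FPKM sums of 278871 to 292200 and 11128 to 11299 genes at 1 FPKM or more. No counts were given, so the depth behind a single value is unknown. Of 11 macrophage markers, 10 reached a mean of 1 FPKM, and their sum ran from 2345 to 2604 FPKM with LPS and from 2413 to 2697 with ultrasound. Within the list 4 were lower and 6 higher, 2 of them lower at an unadjusted limma p below 0.05. Adgre1 (F4/80) had 25.1 ± 7.98 FPKM with LPS and 15.5 ± 2.04 with ultrasound, Fcgr1, an Fc receptor gene, 51.1 ± 5.14 and 42.3 ± 3.28 with no overlap, and the integrin gene Itgam 21.7 ± 9.49 and 12.5 ± 0.732. Their part in the members' differences was not tested. Of 12 skeletal muscle markers only Tnni2 reached it (28.4 FPKM), and none of the 6 fibroblast, 4 endothelial, 4 T cell, 3 B cell and 4 neutrophil markers did. The cell line label was thus met by its markers, although the extraction text in the labels names muscle of another species. LPS library 2 stood apart: it was the highest of the 6 libraries for 3116 and the lowest for 2838 of the 11270 genes tested, more than any other library in both cases, so the counts of members are given with and without it. In bulk RNA, fewer cells of a type and less RNA per cell cannot be told apart.

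A snoRNA is a short nuclear RNA that guides the chemical modification of ribosomal RNA. Members of the box C/D class, named Snord in the mouse, carry a C box near the 5′ end and a D box near the 3′ end, assemble with the methyltransferase fibrillarin and direct 2′-O-methylation. Most are cut out of introns of a host gene after splicing, and some host genes, the Snhg genes and Gas5 among them, have no known protein product: their spliced RNA is exported, and several are kept low by nonsense-mediated decay. Several of them begin with a run of pyrimidines, the 5′ terminal oligopyrimidine (TOP) feature that they share with ribosomal protein mRNAs. Mature snoRNAs have no poly(A) tail, and these libraries were made from RNA captured on oligo(dT) beads, so host genes and short snoRNAs are treated apart.

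The short snoRNAs followed most closely below are shown as DNA letters from the GENCODE M21 transcript set, 5′ to 3′, with the C box (letters TGATGN, searched in the first 20 bases of the RNA strand) and the D box (CTGA, starting in the last 20 bases) in capitals. Snord49b, Snord49a and Snord65 lie in 1 host gene and are shown because the groups did not overlap for Snord49b but did for the others. The difference of Snord49b did not pass the main fit, as given below.
Snord49b: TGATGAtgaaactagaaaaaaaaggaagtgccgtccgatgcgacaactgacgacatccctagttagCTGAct
Snord49a: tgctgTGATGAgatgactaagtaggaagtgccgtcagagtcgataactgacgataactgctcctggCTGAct
Snord65: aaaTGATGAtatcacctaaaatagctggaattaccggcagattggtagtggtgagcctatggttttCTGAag
The first pair shares an unbroken run of 13 bases, aggaagtgccgtc, which starts at base 23 of both RNAs, while the longest run that Snord49b shares with Snord65 is 7 bases at the C box.

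The 5 short snoRNAs whose ultrasound values all lay below their LPS values are the following.
Snord72: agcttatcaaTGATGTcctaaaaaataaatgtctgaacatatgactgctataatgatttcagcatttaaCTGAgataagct
Snord17: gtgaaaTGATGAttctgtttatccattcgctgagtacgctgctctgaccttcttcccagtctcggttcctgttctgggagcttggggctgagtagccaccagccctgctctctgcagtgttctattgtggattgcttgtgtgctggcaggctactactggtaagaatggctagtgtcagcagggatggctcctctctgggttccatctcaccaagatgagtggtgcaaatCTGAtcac
Snord73a: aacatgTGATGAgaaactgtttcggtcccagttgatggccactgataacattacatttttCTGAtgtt
Snord83b: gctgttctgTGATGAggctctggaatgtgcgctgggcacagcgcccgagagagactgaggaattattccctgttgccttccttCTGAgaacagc
Snord42b: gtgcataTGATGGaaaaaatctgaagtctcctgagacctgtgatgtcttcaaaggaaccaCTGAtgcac
The highest short snoRNA, and those inside Gas5 and Snhg6, complete the set.
Snord89: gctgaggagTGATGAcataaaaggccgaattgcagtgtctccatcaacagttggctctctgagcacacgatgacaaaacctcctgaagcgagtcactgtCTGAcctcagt
Snord80: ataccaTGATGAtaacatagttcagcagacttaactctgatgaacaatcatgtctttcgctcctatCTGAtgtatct
Snord87: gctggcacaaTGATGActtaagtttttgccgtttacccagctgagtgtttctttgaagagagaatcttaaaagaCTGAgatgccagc
Both boxes were found in 23 of the 25 members (92.0%), in 62 of 74 other annotated Snord RNAs (83.8%) and in 0 of 42 annotated Snora RNAs, the box H/ACA class. The members run from 66 to 238 bases with a median of 83. FPKM divides by length, so 1 FPKM of an RNA of 83 bases stands for fewer fragments than 1 FPKM of a host transcript, of which the shortest annotated one has 312 bases and the longest 3896. The coefficient of variation within a group, averaged over the groups, had a median of 26.4% for short snoRNAs, 14.1% for host genes and 10.5% for all genes tested.

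The host genes were lower after ultrasound in 9 of 11 cases, with a median log2 fold change of -0.39 against -0.02 for the 11270 genes tested, of which 53.9% were lower. Every fold change is the ultrasound mean less the LPS mean of log2(FPKM + 1), ± its standard error, so changes of genes near or below 1 FPKM come out smaller than they are. No host gene passed limma, a moderated linear model, at an adjusted p (Benjamini-Hochberg over all genes tested) below 0.05, a rule that called 0.0177% of the genes in either direction. At an unadjusted limma p below 0.05, 6 of the 11 were lower and 0 higher, against 9.16% and 6.18% of all genes. In 5 of the 11, Snhg6, Snhg12, Snhg5, Snhg1 and Snhg17, every ultrasound library lay below every LPS library, and in 0 above, against 13.4% and 9.8% of all genes. Without LPS library 2 the groups of 5 host genes did not overlap in the lower direction, against 17.2% of all genes, and the median was -0.35. Leaving out each library in turn, the median ran from -0.42 to -0.27, closest to 0 without LPS library 3, and it was -0.25 with sample weights. The summed FPKM of the 11 host genes was 84.9, 97.1 and 97.8 with LPS and 77.8, 68.4 and 70.9 with ultrasound, so the groups did not overlap in this sum either.

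**Figure D1:**
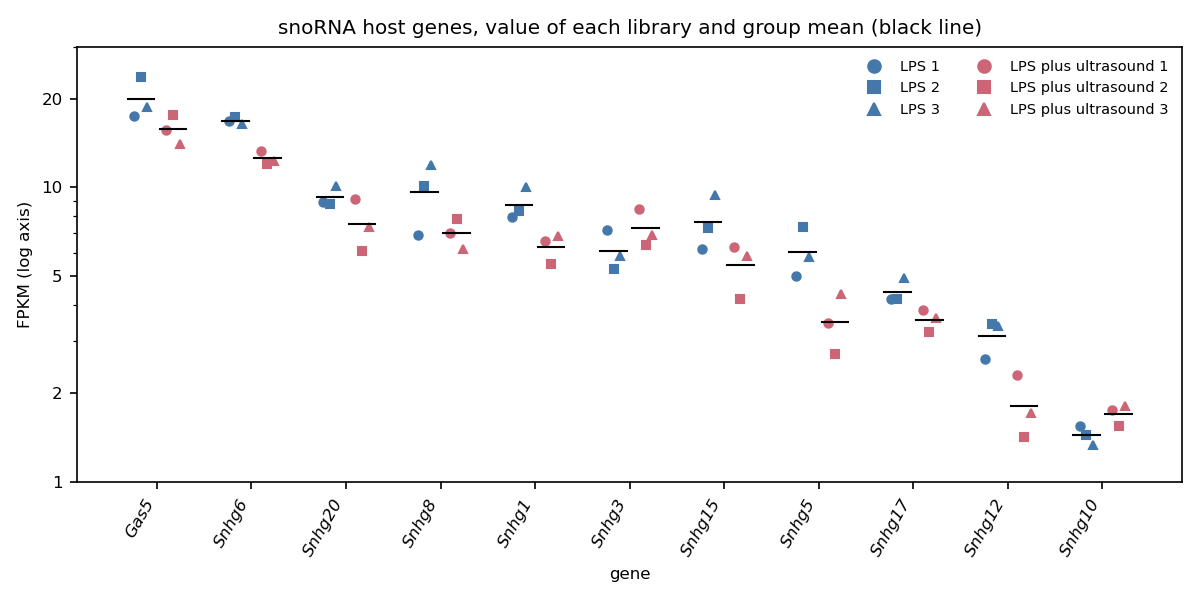
FPKM (log axis) of the 11 snoRNA host genes in each library, LPS in blue and LPS plus ultrasound in red, with the replicate number as the symbol and the group mean as a black line. Snhg6, Snhg12, Snhg5, Snhg1 and Snhg17 have all 3 red points below all 3 blue points.

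Snhg6, the host of Snord87, had the smallest unadjusted p of the host genes. It stood at 16.9, 17.3 and 16.4 FPKM in LPS libraries 1, 2 and 3 and at 13.3, 12.0 and 12.3 in ultrasound libraries 1, 2 and 3. The groups did not overlap, with means of 16.9 ± 0.478 against 12.5 ± 0.701 FPKM (SD, n = 3 each), a ratio of 0.744. The log2 fold change was -0.40 ± 0.07 (limma adjusted p = 0.148). Snhg6 and the protein-coding gene Mcmdc2 overlap on opposite strands, and whether the counting used strand is not given in the sources used here, and Mcmdc2 had a mean of 0.241 FPKM.

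Snhg1, which holds the largest group of snoRNAs after Gas5 among these genes, read 7.93, 8.30 and 10.02 FPKM with LPS and 6.57, 5.51 and 6.82 with ultrasound (-0.42 ± 0.12, limma adjusted p = 0.220). Its lowest LPS library lay above its highest ultrasound library. Snhg5, the host of Snord50a and Snord50b, had 4.99, 7.33 and 5.78 FPKM with LPS and 3.46, 2.72 and 4.33 with ultrasound (-0.65 ± 0.17, limma adjusted p = 0.214), the lowest fold change among the host genes. Snhg12, which carries box H/ACA RNAs beside Snord99, had 2.60, 3.42 and 3.37 FPKM with LPS and 2.30, 1.41 and 1.71 with ultrasound (-0.56 ± 0.15, limma adjusted p = 0.214). Snhg5 and Snhg12 had the lowest ratios of the host genes, at 0.580 and 0.578 of the LPS mean. Snhg17 had 4.19, 4.16 and 4.91 FPKM against 3.82, 3.23 and 3.605 (-0.25 ± 0.10, limma adjusted p = 0.304).

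Gas5, named for its accumulation in growth-arrested cells and known as an RNA that binds the glucocorticoid receptor, was the most abundant host gene. It had 17.55, 23.75 and 18.72 FPKM with LPS and 15.70, 17.58 and 14.08 with ultrasound. Each ultrasound library lay below the LPS library of the same number, but the groups met, since ultrasound library 2 lay just above LPS library 1. The log2 fold change of -0.32 ± 0.13 (limma adjusted p = 0.317) became -0.19 without LPS library 2, the highest of the 6. Gas5 overlaps Zbtb37 (1.22 FPKM) on the opposite strand. It has 25 annotated transcripts from 346 to 2556 bases, and its FPKM depends on which of them the fragments were assigned to.

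The other host genes overlapped between the groups. Snhg8, Snhg15 and Snhg20 were lower in 2 of 3 same-numbered pairs, with log2 fold changes of -0.39 ± 0.18, -0.42 ± 0.18 and -0.29 ± 0.14. Snhg8 was at -0.23 without LPS library 3 and -0.59 without LPS library 1, and Snhg15 at -0.27 without LPS library 3 and also without ultrasound library 2. Snhg20 had 8.95, 8.76 and 10.13 FPKM with LPS and 9.10, 6.09 and 7.33 with ultrasound, so ultrasound library 1 lay among the LPS libraries (limma adjusted p = 0.372). Its fold change was -0.16 without ultrasound library 2 and -0.08 with sample weights. Snhg3 and Snhg10 went the other way in 3 of 3 same-numbered pairs. Snhg3, the host of Snora73a and Snora73b, had 7.18, 5.27 and 5.85 FPKM with LPS and 8.44, 6.40 and 6.92 with ultrasound (0.22 ± 0.14, limma adjusted p = 0.463, with 0.12 without ultrasound library 1 and 0.13 without LPS library 2). It overlaps Gm17300 (3.12 FPKM) on the opposite strand, and shares its strand and part of its span with Rcc1, at 18.3 FPKM, so fragments of the pair may be divided between them. Snhg10, the host of Scarna13, had 1.55, 1.44 and 1.33 FPKM against 1.75, 1.54 and 1.81 (0.15 ± 0.10, limma adjusted p = 0.484).

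The bases around the starts of some host genes are shown, from RefSeq (build GRCm38.p6), 25 before the start and 50 from it on. Snhg17, Snhg15 and Snhg20, all lower, are not printed, and Snhg6 had no start in the source used. The longest unbroken run of C and T between 5 bases before and 20 after the start, on the strand of the gene, is in capitals where it has 6 letters or more.
Snhg1 (chr19:8723462-8723536, plus strand): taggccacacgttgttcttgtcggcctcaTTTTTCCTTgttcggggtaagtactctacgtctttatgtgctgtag
Snhg12 (chr4:132308653-132308727, plus strand): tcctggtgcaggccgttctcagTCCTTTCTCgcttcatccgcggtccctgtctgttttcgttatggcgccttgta
Snhg5 (chr9:88522848-88522922, minus strand): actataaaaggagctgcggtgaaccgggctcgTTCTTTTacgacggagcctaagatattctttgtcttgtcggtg
Snhg8 (chr3:123508287-123508361, minus strand): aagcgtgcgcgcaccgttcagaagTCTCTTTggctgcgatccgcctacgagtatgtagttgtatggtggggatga
Gas5 (chr1:161035141-161035215, plus strand): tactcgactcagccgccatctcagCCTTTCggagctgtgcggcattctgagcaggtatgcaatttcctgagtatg
Snhg3 (chr4:132353637-132353711, minus strand): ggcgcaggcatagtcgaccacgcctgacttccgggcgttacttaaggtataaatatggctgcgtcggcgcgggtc
Snhg10 (chr12:105032230-105032304, minus strand): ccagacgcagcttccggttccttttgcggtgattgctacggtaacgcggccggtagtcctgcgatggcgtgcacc
Such a run was found for 6 of the 10 host genes with a start in the table, Snhg17 being the one not printed. This count takes the start with the longest run of each gene. By single starts, the share was 58.3% of 12 host gene starts, 46.1% for ribosomal protein genes and 22.3% of all 32851 starts. The genes with a run were all among the lower host genes. Of the 4 without one, Snhg15 and Snhg20 (longest runs of 4 and 3) were lower and Snhg3 and Snhg10 (longest runs of 5 each) higher. The run of Snhg10 begins at the edge of the window and continues upstream of it. The split between genes with and without a run thus depends on the window and on the limit of 6 letters. The part of these runs in the differences was not tested. Gas5 has a further RefSeq start, upstream, whose longest run is 3.

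The short snoRNAs were lower after ultrasound in 17 of 25 cases. Their median log2 fold change was -0.22, and they were spread more widely than the host genes, from -1.09 to 0.85. In limma with Benjamini-Hochberg adjustment 0 of the 25 passed, and at an unadjusted p below 0.05 there were 6 lower and 1 higher, against 9.16% and 6.18% of all genes. Snord17, Snord73a, Snord12 and Snord71 passed the limit of 1 FPKM only through their LPS values and 0 snoRNAs only through their ultrasound values, so these counts are not support for a lower level. Among the other 21 snoRNAs 13 were lower, 4 of them at an unadjusted p below 0.05, and the median was -0.12. Without Snord12 and Snord14e as well, whose values jump between libraries, 12 of 20 were lower, with a median of -0.09.

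The groups did not overlap for 5 snoRNAs in the lower direction, Snord72, Snord17, Snord73a, Snord83b and Snord42b, and for 1 in the higher direction, Snord49b. Of all genes, 13.4% and 9.8% did so. Without the 4 snoRNAs that passed through the LPS group 3 of 21 remain in the lower direction (14.3%), a share near that of all genes, and the single higher snoRNA is a share below it. Without LPS library 2 the groups of 6 snoRNAs did not overlap in the lower direction and of 2 in the higher, against 17.2% and 12.3% of all genes. LPS library 3 moved with this difference: it was the highest of the LPS libraries for 17 of the 25 snoRNAs (68.0%, against 30.4% of all genes), and without it the median was -0.09. Without ultrasound library 3 the median was -0.11.

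**Figure D2:**
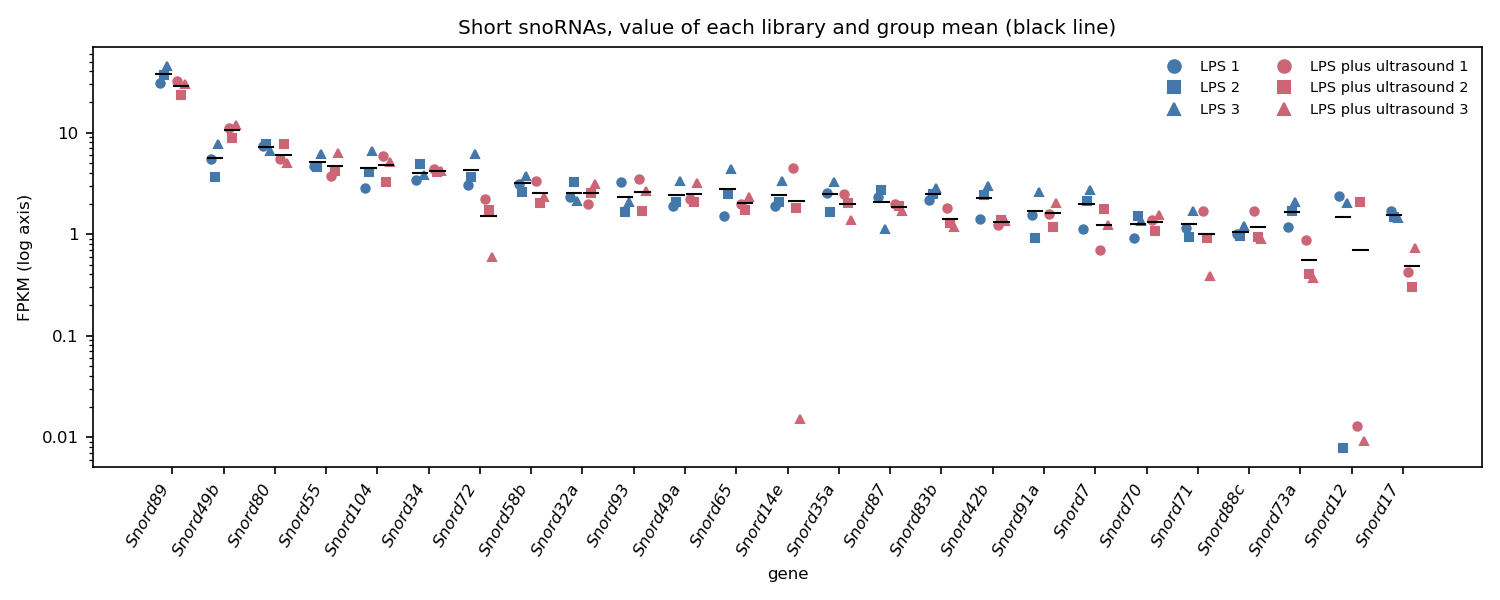
FPKM (log axis) of the 25 short snoRNAs in each library, LPS in blue and LPS plus ultrasound in red, with the replicate number as the symbol and the group mean as a black line. Snord49b is the member whose red points all lie above the blue ones, and Snord12 and Snord14e drop below 0.1 FPKM in single libraries.

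Snord49b was the only member whose groups did not overlap in the higher direction. It had 5.44, 3.65 and 7.76 FPKM in LPS libraries 1, 2 and 3 and 11.14, 8.76 and 11.87 in ultrasound libraries 1, 2 and 3, so even the lowest ultrasound library lay above the highest LPS library. The means were 5.62 ± 2.06 and 10.6 ± 1.63 FPKM (difference of 0.85 ± 0.23 on the log2 scale, limma adjusted p = 0.217, and 0.0459 with sample weights). The fit with sample weights called 223 genes, against 2 in the main fit. Of its neighbours in the same host, Snord49a had 1.88, 2.09 and 3.31 FPKM with LPS and 2.19, 2.07 and 3.17 with ultrasound (0.03 ± 0.19). Snord65 had 1.498, 2.51 and 4.38 FPKM with LPS and 1.99, 1.72 and 2.30 with ultrasound (-0.27 ± 0.26), and for both RNAs the groups overlapped. The host RNA itself, 2410006H16Rik, stood at 83.6, 89.4 and 87.7 FPKM with LPS and 87.1, 83.5 and 80.5 with ultrasound (-0.05 ± 0.07). The ratio of Snord49b to Snord49a, a comparison chosen after the values were seen, was 2.89, 1.75 and 2.35 in the LPS libraries and 5.08, 4.23 and 3.75 in the ultrasound libraries, with no overlap. None of the bases of the 3 snoRNAs lies in an annotated exon of the host.

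**Figure D3:**
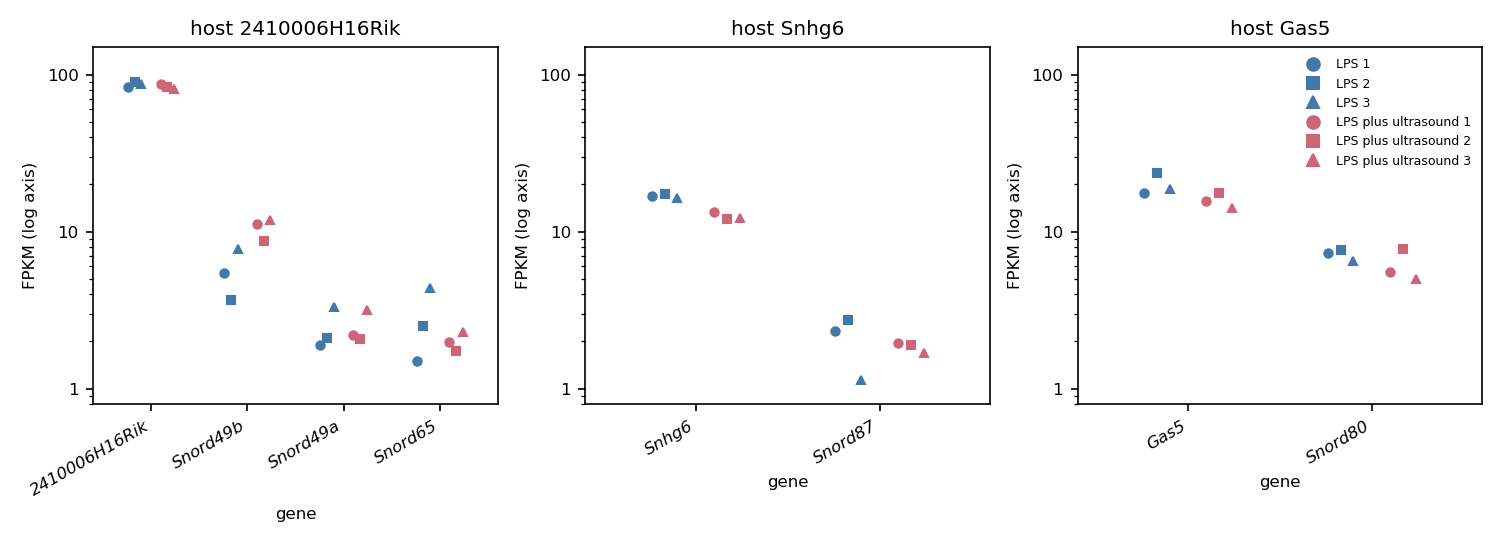
FPKM (log axis) of 3 host genes and the member snoRNAs inside them, by library, LPS in blue and LPS plus ultrasound in red. The groups of Snord49b and of Snhg6 do not overlap, while those of 2410006H16Rik (80.5 to 89.4 FPKM), Snord49a, Snord65, Snord87, Gas5 and Snord80 do.

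Snord72, in an intron of the ribosomal protein gene Rpl37, had the lowest fold change of all members. It read 3.07, 3.65 and 6.12 FPKM with LPS and 2.23, 1.73 and 0.599 with ultrasound (-1.09 ± 0.30, limma adjusted p = 0.218). Its host Rpl37 had 121 ± 14.7 and 109.6 ± 4.22 FPKM, and the groups of the host overlapped. Snord73a, in Rps3a1, had 1.16, 1.69 and 2.05 FPKM with LPS and 0.881, 0.406 and 0.369 with ultrasound (-0.76 ± 0.18, limma adjusted p = 0.183), while Rps3a1 differed by -0.04 ± 0.09. The groups of Rps3a1 overlapped as well, and the difference between a snoRNA and its host was not tested.

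Snord17, a long box C/D RNA in an intron of the sorting nexin gene Snx5, had the smallest unadjusted p of all members. It had 1.67, 1.48 and 1.44 FPKM with LPS and 0.426, 0.302 and 0.724 with ultrasound, a ratio of 0.315. The log2 fold change was -0.78 ± 0.13 (limma adjusted p = 0.132, and 0.0248 with sample weights, a fit that called 223 genes). Since its mean passed 1 FPKM only through the LPS group, a difference in this direction was in part needed for it to be a member, as for Snord73a. Snx5 was lower as well, at 35.6 ± 2.08 and 30.2 ± 1.37 FPKM, and its groups did not overlap.

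Snord83b, in Rpl3, had 2.15, 2.47 and 2.87 FPKM with LPS and 1.79, 1.27 and 1.17 with ultrasound (-0.54 ± 0.13, limma adjusted p = 0.199). Rpl3 lay lower beside it (-0.33 ± 0.12, and -0.20 without LPS library 2), with no overlap of its groups. Snord42b, in Rpl23a, had 1.40, 2.41 and 2.96 FPKM with LPS and 1.22, 1.39 and 1.34 with ultrasound (-0.46 ± 0.18, limma adjusted p = 0.300, and -0.31 without LPS library 3), and its lowest LPS library lay just above its highest ultrasound library. Of its 69 bases, 22 lie in annotated exons of its host, so fragments of the spliced host RNA can be counted for it.

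Snord89, the most abundant short snoRNA, lies in the noncoding gene Gm15832. It had 30.7, 37.2 and 45.2 FPKM with LPS and 32.1, 23.5 and 29.7 with ultrasound (-0.39 ± 0.16, limma adjusted p = 0.321). LPS library 1 lay below ultrasound library 1, and the groups overlapped. The difference was -0.25 without LPS library 3. Its host had a mean of 8.39 FPKM and a fold change of -0.28 ± 0.13.

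Snord80 lies in Gas5, and all of its 77 bases are in annotated exons of Gas5 isoforms, so fragments of Snord80 and of Gas5 cannot be told apart. It had 7.36, 7.68 and 6.51 FPKM with LPS and 5.51, 7.75 and 4.96 with ultrasound (-0.23 ± 0.15, limma adjusted p = 0.492), and ultrasound library 2 was the highest of the 6. The difference was -0.39 without that library and -0.11 without ultrasound library 3. A second entry named Snord80, which overlaps it, was at or near 0 in every library. Other snoRNA entries past 1 FPKM lie inside host genes under names outside the rule: Gm22357, Mir5117 and Gm25789 in Gas5, Gm24452 in Snhg1 and Scarna13 in Snhg10. The groups of each overlapped. The highest, Gm22357, had 38.5 ± 3.94 FPKM with LPS and 33.0 ± 10.3 with ultrasound (-0.25 ± 0.20), and ultrasound library 2 was again the highest at 44.8 FPKM. Its difference was -0.49 without that library and -0.12 without ultrasound library 3. In all, 35 snoRNA or Cajal body RNA entries lie in the 11 host genes and 7 of them passed 1 FPKM.

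Snord87 lies in Snhg6 outside its annotated exons. It had 2.32, 2.75 and 1.13 FPKM with LPS and 1.96, 1.90 and 1.67 with ultrasound (-0.07 ± 0.21), with LPS library 3 the lowest of the 6. Snord12 in Zfas1 and Snord14e in Hspa8 switched between libraries: Snord12 had 2.36, 0.00788 and 2.02 FPKM with LPS and 0.0128, 2.05 and 0.00917 with ultrasound, and Snord14e 1.90, 2.08 and 3.33 with LPS and 4.49, 1.79 and 0.0152 with ultrasound. Both lie wholly in exons of their hosts, and 0 host genes were below 0.1 FPKM in 1 library and above 1 in another. Values this low may be failed estimates. Both RNAs are in the counts over 25 snoRNAs above, which are therefore also given without them.

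Of the 25 short snoRNAs, 24 lie in an annotated host on the same strand, 15 in a protein-coding gene, of which 9 encode ribosomal proteins, and 9 in a noncoding gene. In 23 cases the host passed 1 FPKM. The snoRNA and its host were both lower in 13 of these, both higher in 3 and in opposite directions in 7, counts in which hosts with several snoRNAs appear more than once. Without Snord12 and Snord14e these were 12, 3 and 6 of 21. Snord17, Snord73a, Snord12 and Snord71 passed 1 FPKM only through the LPS group, so a lower value was in part needed for them to be members. Without these 4 the counts were 10, 3 and 6 of 19, and without Snord14e as well 10, 3 and 5 of 18. Small host differences can turn with LPS library 2: without it Rps3a1 was at 0.03. Apart from Snord12 and Snord14e, the 17 short snoRNAs whose groups overlapped had log2 fold changes between -0.42 and 0.11.

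**Figure D4:**
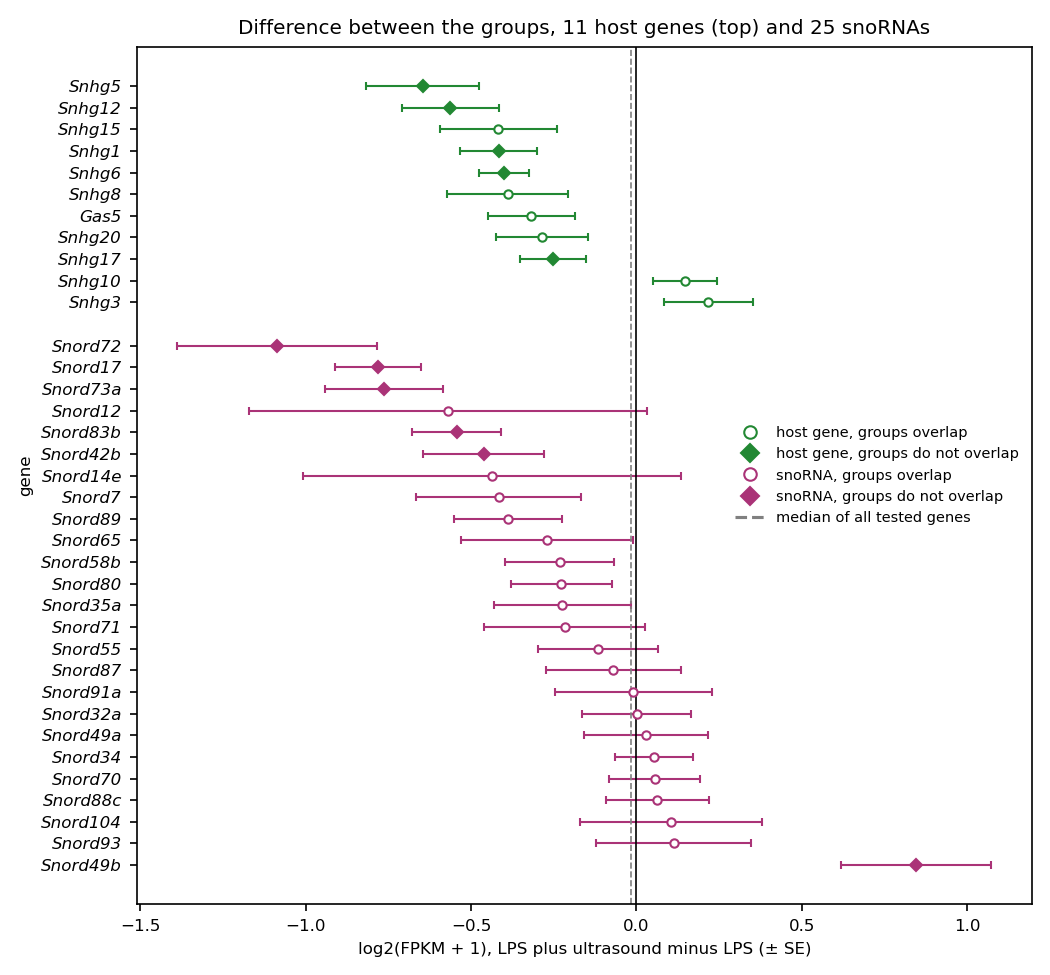
Group difference on the log2(FPKM + 1) scale, ultrasound less LPS alone, ± SE, for the 11 host genes (green) and 25 short snoRNAs (purple), with filled diamonds where the groups do not overlap and a dashed line at the median of all tested genes (-0.02). The host genes lie between -0.65 and 0.22 and the snoRNAs between -1.09 and 0.85.

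On a list of 3 other long noncoding snoRNA hosts, the 2 that were measured were lower as well. Epb41l4aos had 23.7 ± 2.96 FPKM with LPS and 17.7 ± 2.59 with ultrasound (-0.40 ± 0.13), and Zfas1 6.90 ± 0.733 and 5.30 ± 0.556 (-0.33 ± 0.11), with no overlap in either (limma adjusted p = 0.250 and 0.254). Of all genes, 13.4% did not overlap in the lower direction. The listed host Dancr stayed below 1 FPKM. Noncoding hosts of short snoRNAs outside this list and the members did not all lie lower. Of those past 1 FPKM, 2700038G22Rik, the host of Snord93, was at 0.35 ± 0.15, 2410006H16Rik at -0.05 ± 0.07 and Gm15832 at -0.28 ± 0.13. The groups of each overlapped. The box H/ACA and Cajal body RNAs, which guide pseudouridylation and modify spliceosomal RNAs, were lower in 15 of 19 measured entries, with a median of -0.20, and 0 passed limma with Benjamini-Hochberg adjustment while 2 (10.5%) were lower and 0 higher at an unadjusted p below 0.05, against 9.16% and 6.18% of all genes. The median was -0.11 without LPS library 3 and -0.13 without ultrasound library 2. Scarna13, one of the 19, had 1.32 FPKM with LPS and 0.816 with ultrasound, so it passed 1 FPKM only through the LPS group. The other entries were not checked for this, so these counts are not support for a lower level. Snora34 had 3.93 ± 0.537 and 2.60 ± 0.372 FPKM (-0.45 ± 0.12) and Snora41, in the elongation factor gene Eef1b2, 6.68 ± 1.06 and 4.07 ± 1.03 (-0.61 ± 0.18), neither with overlap. They were the only 2 of the 19 without overlap in the lower direction (10.5%), a share below the 13.4% of all genes.

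The genes for the proteins of the particles had values close to equal or higher. The 4 box C/D core genes, which encode fibrillarin and its partners, were higher in 4 of 4, with a median of 0.05: Fbl had 11.3 ± 0.613 FPKM with LPS and 11.9 ± 1.08 with ultrasound, Nop56 20.1 ± 1.85 and 20.8 ± 0.194, and Nop58 10.04 ± 1.48 and 11.7 ± 1.77. The groups of each overlapped, and without LPS library 2, or without ultrasound library 3, 2 of the 4 were lower. The 4 box H/ACA core genes were likewise higher in 4 of 4, with a median of 0.11, and the pseudouridine synthase gene Dkc1, at 4.89 ± 0.667 and 5.88 ± 0.191 FPKM (0.23 ± 0.10), had no overlap. Without LPS library 2, 1 of these 4 was lower. Of the 8 core genes 0 passed limma with Benjamini-Hochberg adjustment, and 0 had an unadjusted p below 0.05.

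Assembly and nucleolar factors were lower in 13 of 18 genes, with a median of -0.10, and 3 were lower and 1 higher at an unadjusted limma p below 0.05 (16.7% and 5.56%, against 9.16% and 6.18% of all genes). Tcof1, a nucleolar factor for ribosomal RNA synthesis, had 30.4 ± 1.12 and 23.7 ± 2.41 FPKM (-0.35 ± 0.09), Nop14, a small subunit processome factor, 33.3 ± 0.750 and 28.3 ± 1.42 (-0.23 ± 0.07), and Npm1, the nucleolar chaperone gene, 185 ± 46.6 and 135 ± 2.64 (-0.42 ± 0.16), all without overlap. Of the 18, 6 did not overlap in the lower direction (33.3%) and 1 in the higher (5.56%), against 13.4% and 9.8% of all genes. Npm1 was at 239 FPKM in LPS library 2, and its difference was -0.23 without that library. Nonsense-mediated decay factors were lower in 11 of 14 with a median of -0.05, and 0 had an unadjusted limma p below 0.05. Upf2 had 10.5 ± 1.17 and 9.01 ± 0.270 FPKM (-0.19 ± 0.09, and -0.11 without LPS library 3). No gene of these lists passed limma with Benjamini-Hochberg adjustment.

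Genes whose mRNA starts with the TOP feature differed by little. Cytosolic ribosomal protein genes were lower in 81 of 83, with a median of -0.09, and other TOP mRNAs in 17 of 18, with a median of -0.10, where the host genes stood at -0.39. These counts turn on LPS library 2. Without it 58 of the 83 were lower, with a median of -0.02, and 14 of the 18, with a median of -0.07, against -0.02 for all genes. Of the 83, 9 did not overlap between the groups in the lower direction (10.8%, below the 13.4% of all genes), and of the 18, 6 did not (33.3%). Rpl7 had 285 ± 12.0 and 254 ± 5.80 FPKM (-0.17 ± 0.07), Rpl22l1, a ribosomal protein paralogue, 5.92 ± 0.652 and 4.10 ± 0.590 (-0.44 ± 0.12), and the initiation factor gene Eif3f 96.8 ± 1.71 and 87.3 ± 2.93 (-0.15 ± 0.06). None of these genes passed limma with Benjamini-Hochberg adjustment, and 3 of the 83 (3.61%) and 1 of the 18 (5.56%) were lower at an unadjusted p below 0.05, both below the 9.16% of all genes.

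**Figure D5:**
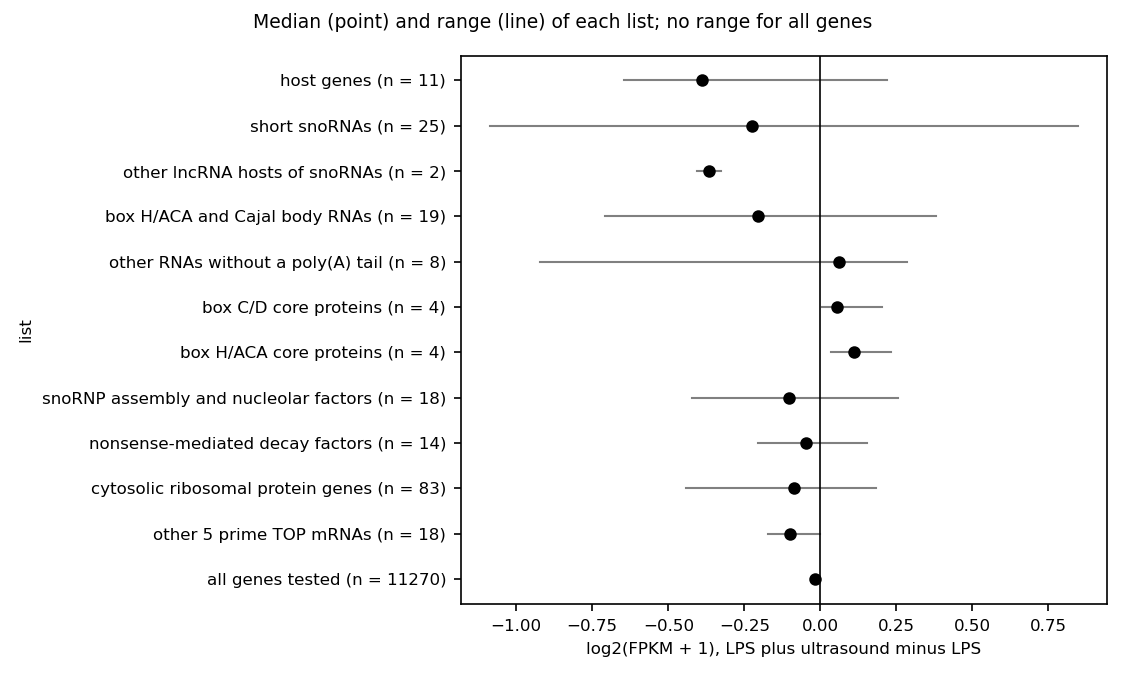
Median (point) and range (line) of the group differences on the log2(FPKM + 1) scale for the members and for the related lists, with the number of genes tested. The host genes (-0.39) and the 2 listed other noncoding hosts lie lower than the ribosomal protein genes (-0.09). The core protein lists lie above 0.

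Other RNAs listed as lacking a poly(A) tail, histone genes among them, were followed beside the snoRNAs. Whether the captured forms of these RNAs lacked a tail is not known. The 8 past 1 FPKM were lower in 3 and higher in 5, with a median of 0.06. Rn7sk, an abundant nuclear RNA, had 4.09, 4.91 and 9.87 FPKM with LPS and 2.89, 3.93 and 4.13 with ultrasound (-0.58 ± 0.28), so it was the highest of the 6 in LPS library 3, as were 13 of the 25 short snoRNAs, and its fold change was -0.25 without that library. The summed FPKM of all rows on this list was 53.5 to 74.5 with LPS and 50.8 to 69.8 with ultrasound, highest in library 2 of each group. The nuclear-retained RNA Malat1 had 34.3 ± 2.39 and 30.8 ± 5.55 FPKM. The part of these RNAs and of LPS library 3 in the snoRNA values was not tested.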

How the data were processed

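The 6 libraries were made from RNA captured on oligo(dT) beads and sequenced as paired ends, per the labels' protocols. The authors deposited 1 table of FPKM values per gene and library, used as deposited. No source used here gives the aligner, the counting or its use of strand. The submitters' processing notes name the rat build mRatBN7.2, although all 55335 identifiers are mouse, so no coordinates of the authors' files are given. Symbols (55154 of the identifiers) came from a separate reference list of gene names. Transcript lengths, hosts and snoRNA sequences came from GENCODE M21, and starts from RefSeq. No counts were given and the depth is unknown.

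Genes whose 6 libraries averaged 1 FPKM or more, 11270 in all, were tested on log2(FPKM + 1) with limma 3.58.1 in R 4.3.3 (variance trend, robust moderation, two-sided, Benjamini-Hochberg adjustment over all of them, threshold 0.05), and the procedure was tested on simulated data. Tables and figures used Python 3.11.15. Members and gene lists were chosen with earlier results of these data known. Given in full are members whose groups did not overlap, the 6 host genes and 6 snoRNAs with the smallest p and the 3 of each with the highest mean, and from each list up to 3 genes with the smallest p. Snhg3, Snhg10, Snord49a, Snord65, Snord87, Snord12 and Snord14e were added after their values were seen. Deviations from the group means correlated at 0.18, 0.44 and 0.41 between libraries of the same number in the titles, and at -0.40 to 0.06 otherwise. The main fit, which gave the standard errors and adjusted p printed above, was unpaired and left these numbers out. A fit with the numbers as a block was an alternative. Other alternatives changed the pseudocount, filter, scaling, moderation, weights and libraries.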

Additional observations from a re-analysis of the deposited data

How the results depend on the processing

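No host gene passed the threshold under any alternative run. Of the 11 host genes 9 were lower throughout, except that a mean of at least 5 FPKM left 7, of which 6 were lower. Over all genes, the 2 past the threshold became 1 with a mean of at least 5 FPKM and 1 without genes under 200 bases, 5 with the same FPKM sum, 6 without both libraries numbered 2, 223 with sample weights, and 2 to 8 when single libraries were left out. With the replicate block 13 genes passed and no member did, so the block changed no member's call. The limma adjusted p in that fit was lowest among the members for Snord49b, at 0.0587. It was 0.0620 for Snhg6 and for Snord17, and 0.0795 for Gas5. Sample weights put 2 short snoRNAs past the threshold, Snord17 and Snord49b. With a mean of at least 5 FPKM 2 snoRNAs were lower of those left, and the fit without genes under 200 bases gives no value for the snoRNAs as a set. Leaving out single libraries, the snoRNA median ran from -0.29 to -0.087 (the latter without LPS library 3). Without LPS library 2, an alternative chosen after seeing the data, 2 snoRNAs did not overlap in the higher direction. Of 430 values of 24 named members under 19 alternatives, 417 kept direction and side of the threshold, 2 passed it and 11 changed sign. With sample weights Snord14e was at 0.41, Snord49a at -0.030 and Snord87 at 0.013, and Snord87 was at 0.080 without both libraries numbered 2. Leaving out single libraries gave -1.01 to 0.21 for Snord14e, -0.11 to 0.21 for Snord49a, -0.54 to 0.017 for Snord65 and -0.31 to 0.095 for Snord87. Sample weights also moved Snhg12 to -0.32, Snhg15 to -0.22, Snord73a to -0.49, Snord83b to -0.35, Snord89 to -0.20 and the snoRNA median to -0.11. A pseudocount of 0.1 moved Snord17 to -1.55, Snord73a to -1.46 and Snhg10 to 0.23, and Snhg5 was at -0.39 without both libraries numbered 2. The related lists without single libraries, and the snoRNA counts without members past the filter through the LPS group or with jumping values, were alternatives chosen after seeing the data. The cause of these changes was not tested.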
